A study of Homo sapiens with 3 samples.

Results

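A set of 1572 cells that carried RNA of MYOF, FLNC, PIEZO2, EGFL6, PTN and KRT7 together was described in beta-cell differentiations of a human embryonic stem cell line. A barcode belonged to the set when it held 1000 to 40000 unique molecular identifiers (UMIs, 1 per captured RNA molecule), at least 500 genes, at most 20% mitochondrial UMIs and under 5 CHGA UMIs per 10000. It also had to hold at least 1 UMI of at least 4 of those 6 marker genes. CHGA encodes chromogranin A, a granule protein of endocrine cells, so the set lay among the cells with little endocrine RNA. The members were 1572 of 29021 barcodes, and 1572 of the 21548 CHGA-low cells that passed the other limits.

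The cells were of the established line H1 and were grown through a beta-cell differentiation before droplet single-cell RNA sequencing. The study had 3 libraries: unedited cells (WT), cells heterozygous for a PAX6 lesion (PAX6+/-, HET) and cells homozygous for it (PAX6-/-, KO). PAX6 is a transcription factor needed for hormone expression in islet cells. All cultures were dissociated with the same enzyme. The sources used here do not give the position of the lesion, the number of edited clones or the day of the differentiation. There was 1 library per genotype, so library and genotype cannot be told apart, and no difference between them has a replicate check, a p-value or a standard error. The intervals given are 95% intervals (exact Poisson for counts, exact Clopper-Pearson for shares) that cover counting error only.

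The rule genes have separate known roles. MYOF encodes myoferlin, a ferlin protein of membrane repair and vesicle traffic. FLNC encodes filamin C, which crosslinks actin filaments and is best known from muscle. PIEZO2 encodes a channel that opens when the membrane is stretched, and it serves touch neurons and sensory cells of the gut. EGFL6 and PTN encode secreted proteins, an EGF-repeat matrix protein and the heparin-binding growth factor pleiotrophin. KRT7 encodes keratin 7, an intermediate filament protein of ductal and other simple epithelia. In the pancreas, duct cells line the channels that carry enzymes to the gut, and they are known by SOX9, KRT7, KRT19, CFTR and SPP1.

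In GRCh38 with GENCODE 29 annotation, MYOF lies on chromosome 10 from 93306429 to 93482317 on the minus strand, and FLNC on chromosome 7 from 128830377 to 128859274 on the plus strand. PIEZO2 lies on chromosome 18 from 10666483 to 11148762 (minus), and EGFL6 on chromosome X from 13569605 to 13633575 (plus). PTN lies on chromosome 7 from 137227341 to 137343865 (minus), and KRT7 on chromosome 12 from 52232520 to 52252186 (plus). Each of the 6 is annotated as protein coding.

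The bases just before the start of 3 genes are shown: the rule markers MYOF and FLNC, and MYL7, an atrial myosin light chain that was higher the more markers a cell held. The sequences are from RefSeq (GRCh38.p14), on the strand of the gene, at chr10:93482335-93482584 (minus) for MYOF, chr7:128830156-128830376 (plus) for FLNC and chr7:44141333-44141582 (minus) for MYL7. Capitals mark the core of the TEAD motif (CATTCC, searched on both strands) and the CArG box, the motif of serum response factor.
MYOF: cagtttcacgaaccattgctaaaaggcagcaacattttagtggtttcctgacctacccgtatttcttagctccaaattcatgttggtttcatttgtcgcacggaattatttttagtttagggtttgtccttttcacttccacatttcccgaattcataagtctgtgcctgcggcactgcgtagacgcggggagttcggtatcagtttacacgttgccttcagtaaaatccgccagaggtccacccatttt
FLNC: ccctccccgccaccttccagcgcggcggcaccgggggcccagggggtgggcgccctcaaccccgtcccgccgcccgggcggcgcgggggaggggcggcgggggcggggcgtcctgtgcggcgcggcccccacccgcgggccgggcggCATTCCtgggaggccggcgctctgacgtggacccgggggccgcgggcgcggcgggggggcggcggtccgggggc
MYL7: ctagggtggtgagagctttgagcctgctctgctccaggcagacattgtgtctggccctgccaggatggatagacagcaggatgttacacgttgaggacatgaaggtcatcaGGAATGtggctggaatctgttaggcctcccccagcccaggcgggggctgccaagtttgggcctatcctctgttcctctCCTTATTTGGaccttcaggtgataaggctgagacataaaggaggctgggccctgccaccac
The FLNC sequence ends at the base before the annotated gene. The whole 250-base FLNC window was 85.6% G and C and held 1 TEAD core 97 bases before the start that RefSeq gives, which lies further into the gene than the annotated GENCODE start. The MYL7 window held a TEAD core 133 bases and a CArG box 51 bases before the start, and the MYOF window held neither motif, nor the AP-1 motif TGANTCA. A window was found for 28 of the 31 genes that were at least 2-fold higher in members in every library (described further on). Of these, 7 of 28 held the TEAD core, against 14.3% of all 27305 genes with a window. A gene counted where any of its windows held the motif, and the 28 genes had 44 windows against 35116 for all 27305. The 28 thus had more windows per gene, and the shares given here are not per window. The CArG box was held by 2 (7.14%) against 1.44%, and AP-1 by 2 (7.14%) against 8.06%. The 7 genes with the TEAD core were CSRP1, FHL2, FLNC, MYL7, S100A16, TM4SF1 and TPD52L1, and FHL2 and MYL7 held the CArG box. These letter matches are a description, and the motifs and genes were chosen with expression values in view.

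The 3 libraries were alike in size and depth, with 9628 to 9726 barcodes and 136834433 to 145948590 UMIs each. The limits on UMIs, genes and mitochondrial share kept 25463 barcodes. Between 26 and 43 barcode sequences were shared by each pair of libraries, and 0 of the shared ones were members. Members were deeper than the other CHGA-low cells: their median UMI count was 20397 in WT, 22066 in HET and 21368 in KO, against 14310.5, 13775 and 14721. Their median mitochondrial share was lower, at 3.51%, 4.91% and 4.18% against 4.76%, 6.27% and 5.67%. A deeper cell can pass a detection rule more easily, so values at equal depth stand beside the share. Scrublet, a caller of droplets with more than 1 cell, marked 0 cells at its own threshold and so did not work. Of the members, 7.09% in WT, 13.7% in HET and 9.13% in KO lay in the top 8% of their library's doublet scores, against 6.45%, 7.54% and 7.62% of the other CHGA-low cells.

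The MYOF-KRT7-PIEZO2 cells were found in every library and took the largest share in KO. They were 254 of 6600 CHGA-low cells in WT (3.85%, interval 3.4 to 4.34), 277 of 7546 in HET (3.67%, 3.26 to 4.12) and 1041 of 7402 in KO (14.1%, 13.3 to 14.9). The KO share was 3.65 times the WT share and 3.83 times the HET share, while HET stood at 0.954 times WT. The intervals of WT and HET overlapped, and that of KO lay above both. When each cell was thinned to 5000 UMIs and the rule was applied again, the share was 35 of 6378 cells in WT (0.549%, 0.383 to 0.762), 37 of 7345 in HET (0.504%, 0.355 to 0.694) and 194 of 7199 in KO (2.69%, 2.33 to 3.10). Thinning left out 189, 156 and 135 shallower CHGA-low barcodes, respectively. At equal depth the KO share was 4.91 times that of WT and 5.35 times that of HET.

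The same rule was applied to the CHGA-high cells for comparison. They are not a clean control, since KRT7 was found in a larger share of them than of the other CHGA-low cells in each library. At least 4 markers were found in 10 of 1888 CHGA-high cells in WT (0.530%), 10 of 748 in HET (1.34%) and 12 of 1279 in KO (0.938%). Their median UMI counts were 12876.5, 12578 and 12514. After thinning, 2 of 1715, 1 of 726 and 1 of 1173 CHGA-high cells passed. The member shares among CHGA-low cells were above these levels in every library. After thinning, the intervals in percent overlapped in WT (0.383 to 0.762 against 0.0141 to 0.421) and HET (0.355 to 0.694 against 0.00349 to 0.765). In KO they did not (2.33 to 3.10 against 0.00216 to 0.474).

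The limit of 4 markers cut through a continuous range of cells. Cells with no marker were 57.8% of CHGA-low cells in WT, 48.0% in HET and 33.7% in KO. Just outside the limit, with exactly 3 markers, lay 302, 484 and 849 cells, and just inside, with exactly 4, lay 157, 175 and 581. All 6 markers were found in 24 cells of WT, 29 of HET and 120 of KO. More cells thus sat just outside the limit than just inside it in each library, and the members are a range cut from a count, not a class with a gap around it.

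**Figure D1:**
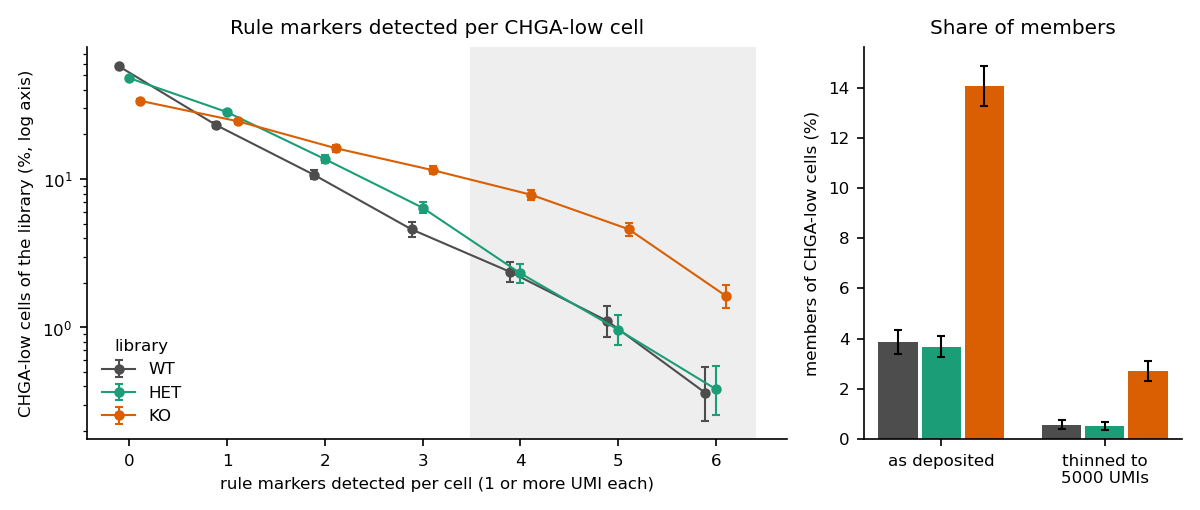
CHGA-low cells of each library by the number of the 6 rule markers detected (left, percent of the library's CHGA-low cells, log axis, with members shaded), and the share with at least 4 as deposited and after thinning to 5000 UMIs (right, percent, with exact binomial intervals). KO lies above WT and HET at 4, 5 and 6 markers and in both shares (14.1% as deposited, 2.69% thinned).

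Among the rule markers, MYOF was the most widely detected and EGFL6 or KRT7 the least. Levels are counts per 1000000 UMIs (CPM) of summed cells after TMM scaling, and since the rule chose the cells by these genes they are a description only. MYOF stood at 189 CPM in WT members, 150 in HET and 225 in KO, against 22.7, 28.9 and 45.0 in the other CHGA-low cells. FLNC stood at 127, 103 and 158 CPM against 15.1, 19.9 and 32.8. PIEZO2 stood at 105, 67.0 and 126 CPM against 12.0, 6.17 and 26.1. Each of the 3 was highest in KO, in members and in the other cells alike, and lowest in HET members.

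PTN stood at 172, 260 and 257 CPM in WT, HET and KO members, against 15.9, 25.7 and 30.3 in other CHGA-low cells. KRT7 stood at 94.2, 127 and 132 CPM against 7.12, 14.2 and 11.2. EGFL6 ran the other way, at 105 CPM in WT, 69.9 in HET and 59.7 in KO against 8.44, 9.40 and 9.59. No rule marker differed by as much as 2-fold between the members of any pair of libraries. At least 1 UMI of MYOF was found in 96.1%, 94.2% and 96.6% of WT, HET and KO members, and of KRT7 in 50.8%, 73.6% and 62.1%. KRT7 was not particular to these cells: 14.6%, 18.0% and 29.6% of the CHGA-high cells held a UMI of it, more than the 4.66%, 9.08% and 8.35% of the other CHGA-low cells.

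Each marker was also higher in cells chosen without it. The 6 markers were chosen together with earlier results of these data known, so this is a description and no test. When each marker was left out of the rule and cells were chosen by at least 4 of the other 5, the left-out marker was higher in the chosen cells in all 18 comparisons (6 markers in 3 libraries). The ratio to the CHGA-low cells with fewer of the other 5, some of them members, ran from 3.18 for PIEZO2 in KO to 9.17 for KRT7 in WT. KRT7 in KO, for example, stood at 125 CPM in 783 such cells and at 19.2 CPM in the cells below that limit. The combination MYOF, FLNC, PIEZO2 and PTN was the commonest in WT (30 members, 11.8%) and in KO (165 members, 15.9%), while HET members most often held MYOF, FLNC, PTN and KRT7 (44 members, 15.9%).

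The name duct-like was checked against 20 genes of pancreatic duct cells, and most of them did not go with it. With at least 5 CPM in either group, 14 genes could be compared in WT, 14 in HET and 13 in KO. Of these, 1, 2 and 1 passed 2-fold upward in members and 4, 4 and 3 downward. Over all genes with at least 5 CPM, 2.65%, 2.34% and 1.92% passed upward and 3.78%, 1.83% and 1.85% downward. The median log2 difference was -0.22, -0.29 and 0.06, beside -0.06, -0.01 and 0.03 over all genes with at least 5 CPM. KRT7, a marker of the rule, was the gene above 2-fold in each library, joined in HET by CFTR.

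SOX9, a transcription factor of ducts and of their progenitors, stood at 19.2 CPM in WT members, 16.7 in HET and 12.7 in KO against 65.8, 42.1 and 43.3 in the other cells. SPP1, which encodes osteopontin, stood at 589, 726 and 275 CPM against 1243, 1922 and 770. SLC4A4, the bicarbonate importer of duct cells, stood at 15.8, 19.0 and 9.77 CPM against 85.9, 75 and 53.3. All 3 were more than 2-fold lower in members in each library, as was SCTR, the secretin receptor, in WT and HET. KRT19 was about equal, at 871, 1063 and 882 CPM against 889, 1017 and 843. CFTR, the chloride channel of duct cells, was 1.80, 2.33 and 1.66 times as high in members, at 65.3, 53.5 and 57.8 CPM. MUC1, AQP1, AQP5, PKHD1, TFF2 and MMP7 stayed under 5 CPM in members and others of every library. The cells are therefore called here by their markers and not as duct-like.

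Genes beyond the rule were also higher in members, among them S100A14, RBP4 and MYL7. In WT, 3551 genes reached 50 CPM in members or others. Of these, 89 (2.51%) were 2-fold or more higher in members and 74 (2.08%) 2-fold or more lower. In HET, 53 (1.56%) of 3387 genes were higher and 48 (1.42%) lower, and in KO 72 (2.11%) of 3407 were higher and 42 (1.23%) lower. Over the 3122 genes that could be compared in all libraries, 31 (0.993%) were higher in each, the 6 rule markers among them, and 24 (0.769%) were lower in each. The rule used this contrast, so these counts and the values that follow are a description with no test.

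S100A14, an S100 protein of epithelia, was higher in members of every library. It stood at 2697 CPM in WT members, 1144 in HET and 1708 in KO, against 432, 205 and 412 in other CHGA-low cells. Its relative S100A16 stood at 846, 514 and 944 CPM against 267, 153 and 310.5. RBP4, the carrier of retinol in blood, stood at 831, 604 and 521.5 CPM against 131, 59.2 and 125. All 3 genes were at least 3-fold higher in members of each library, up to 10.2-fold for RBP4 in HET.

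Several of the named genes are known from actin and muscle. MYL7 stood at 60.4 CPM in WT members, 54.9 in HET and 67.6 in KO, against 5.50, 15.2 and 9.90. In KO this was a 6.83-fold difference (6.31 to 7.40), the largest among the named higher genes of KO after KRT7 and PTN. FHL2, a LIM-domain protein of heart muscle, stood at 224, 104 and 164.5 CPM against 55.5, 31.4 and 51.6. CSRP2, a LIM-domain protein of smooth muscle, stood at 363, 261 and 368 CPM against 92.5, 93.5 and 98.2. LCP1, the actin bundler plastin-2 known from blood cells, stood at 66.3, 114 and 78.8 CPM against 10.1, 21.0 and 18.0, and COTL1, which binds actin filaments, at 284.5, 107 and 125 CPM against 79.8, 37.7 and 40.4. Apart from LCP1, these genes were lower in HET members than in WT and KO members.

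Further genes above 2-fold in each library were TPD52L1, a coiled-coil protein, TM4SF1, a tetraspan membrane protein, and NPPB, the gene of the heart hormone BNP. TPD52L1 stood at 83.0, 83.1 and 105 CPM in WT, HET and KO members against 16, 19.0 and 21.9. NPPB stood at 756, 358 and 279 CPM against 167, 96.4 and 93.4, and TM4SF1 at 110, 63.1 and 69.2 CPM against 22.2, 14.1 and 22.7. AREG, the EGF-receptor ligand amphiregulin, stood at 495, 382 and 229.5 CPM against 117, 152.5 and 98.0. SELENOP, which carries selenium, stood at 629, 786 and 934 CPM against 269, 223 and 359. AREG and NPPB were highest in WT members and SELENOP in KO members. The remaining named genes were MMD, PRR15, NUDT4, SYT10, PCP4 and PDE5A, with folds from 2.26 (PDE5A in KO) to 4.25 (PCP4 in HET).

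The depth of the cells was matched by taking only other CHGA-low cells whose UMI count lay between the 25th and 75th percentile of the members. Of the 25 named higher genes, rule markers included, 25 stayed at least 2-fold higher in WT, 24 in HET and 21 in KO. AREG fell short in HET and KO, and PDE5A, PRR15 and SYT10 in KO. Over all genes, the higher count in KO moved from 72 to 40 and the lower count from 42 to 23. The named genes other than those 4 thus remained past 2-fold against cells of like depth.

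**Figure D2:**
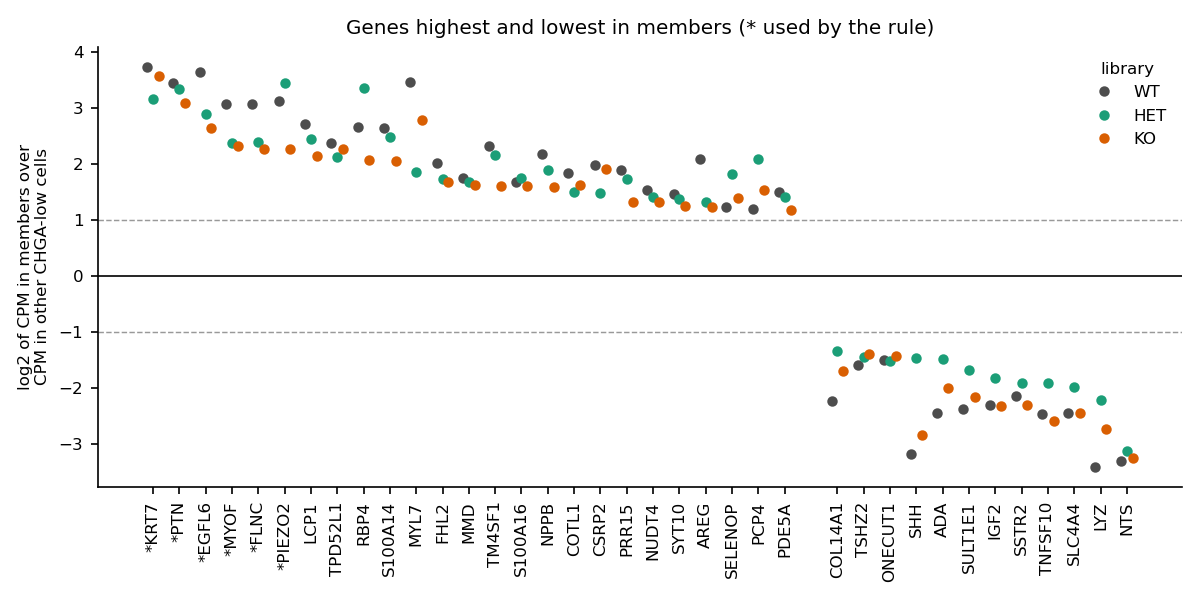
Log2 ratio of the CPM in members to that in other CHGA-low cells for the 25 named higher and 12 named lower genes, 1 point per library, with dashed lines at 2-fold and stars at the genes of the rule. Each point lies beyond 2-fold, since that is how the genes were chosen, and the libraries differ most for genes such as MYL7 (10.99-, 3.62- and 6.83-fold in WT, HET and KO) and SHH.

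Genes lower in members included NTS and genes of pancreatic progenitors. NTS, the gut peptide neurotensin, stood at 141 CPM in WT members, 91.0 in HET and 30.9 in KO against 1408, 797 and 296, or 9.96-, 8.76- and 9.59-fold lower. LYZ, lysozyme, stood at 16, 14.7 and 11.7 CPM against 170, 68.7 and 78.1. SHH, the hedgehog ligand that pancreatic epithelium turns off early, stood at 6.65, 24.5 and 7.54 CPM against 60.8, 67.8 and 54.4. The fold between members and others was thus near 9 for NTS in every library, though its level differed between libraries in both groups.

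IGF2, a fetal growth factor, stood at 70.1, 43.2 and 23.0 CPM in members against 347.5, 153 and 115. ONECUT1, a transcription factor of pancreatic progenitors, stood at 31.5, 30.8 and 22.3 CPM against 89.9, 88.5 and 59.9. SSTR2, TNFSF10, SULT1E1, ADA, TSHZ2, COL14A1 and SLC4A4 complete the 12 genes named as lowest. Against cells of like depth, 12 of the 12 stayed at least 2-fold lower in WT, 11 in HET and 12 in KO, with COL14A1 falling short in HET.

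The progenitor list of 15 genes leaned the same way. Of its genes that reached 5 CPM, 5 of 12 passed 2-fold downward in WT members, 4 of 11 in HET and 5 of 12 in KO, beside 3.78%, 1.83% and 1.85% of all genes, and 0 passed it upward. PDX1, the master regulator of the pancreas, stood at 37.6, 30.2 and 25.7 CPM in WT, HET and KO members against 97.9, 65.9 and 54.3. NKX6-1, needed for beta cells, stood at 5.32, 2.30 and 2.2 CPM against 24.0, 12.5 and 9.27. GATA6, GATA4, FOXA2, HNF4A and NR5A2, factors of foregut and liver as well as pancreas, differed by at most 1.38-fold in each library. The median log2 difference of the list was -0.68, -0.47 and -0.64, beside -0.06, -0.01 and 0.03 over all genes.

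Contractile genes leaned toward the members. Of 14 genes of smooth muscle and contraction, 9 had at least 5 CPM in WT, 10 in HET and 9 in KO, and each of these was higher in members, 6, 3 and 4 of them by at least 2-fold. Over all genes with at least 5 CPM, 2.65%, 2.34% and 1.92% were that much higher. The list's median log2 difference was 1.12, 0.78 and 0.92, beside -0.06, -0.01 and 0.03 over all genes. TAGLN, the actin-binding protein transgelin, stood at 1207 CPM in WT members, 576 in HET and 794 in KO against 391, 320 and 227. MYL9, a myosin light chain, stood at 552, 405 and 494 CPM against 249, 265 and 212. TPM2, a tropomyosin, stood at 306, 242 and 238 CPM against 132, 148 and 101, and FLNA, filamin A, at 437, 397 and 454 CPM against 203, 238 and 239. The list was not present as a whole: MYH11, DES, LMOD1 and MYLK stayed under 5 CPM in every group. Its genes ACTA2, CNN1, ACTG2 and SYNPO2 reached 5 CPM in HET members and were higher there than in the other HET cells.

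A fetal-liver gene list gave an uneven picture. Of the 12 genes with at least 5 CPM among 14, 4 were at least 2-fold higher in WT members, 6 in HET and 3 in KO, where 2.65%, 2.34% and 1.92% of all genes were. The median log2 difference of the list was 0.42, 0.99 and 0.37. FGG, a fibrinogen chain, stood at 2574, 1555 and 2530.0 CPM in WT, HET and KO members against 1164, 613 and 1237. APOA2, an apolipoprotein, stood at 1097, 1196 and 1259 CPM against 382, 346 and 672. FGB, the partner of FGG in fibrinogen, was about equal at 5622, 3585 and 4912 CPM against 5325, 3608 and 4068, and APOA1 was 2.19-fold lower in KO members. AHSG and TF, abundant products of hepatocytes, stayed under 5 CPM. CDX2, a gut transcription factor that was also expressed here, was 260, 140 and 184 CPM in members against 247, 131 and 143.

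Epithelial junction genes were present at similar levels in both groups. EPCAM stood at 832, 635 and 630 CPM in WT, HET and KO members against 1007, 714 and 632. Of 17 keratin and junction genes with at least 5 CPM, KRT7 was the gene past 2-fold in each library. CLDN7, a claudin, stood at 972, 592 and 690 CPM against 486, 353 and 447. KRT18 was 1.12, 1.25 and 1.86 times as high in members, reaching 1180 CPM in KO. The epithelial genes CDH1, TJP1 and OCLN differed by at most 1.15-fold.

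Genes around the rule markers were compared as families. PIEZO1, the other piezo channel, stood at 14.4, 16.7 and 16.9 CPM in WT, HET and KO members against 14.9, 16.5 and 13.1, and among 12 or 13 channel genes in each library PIEZO2, which the rule used, was the gene above 2-fold. The other ferlins DYSF, OTOF and FER1L5 stayed under 5 CPM, and FER1L6 was lower in members. ANXA1, a calcium-dependent membrane repair protein, stood at 86.4, 196 and 73.0 CPM against 16.3, 78.1 and 32.4. CAVIN1, a coat protein of caveolae, stood at 42.2, 34.9 and 46.2 CPM against 13.6, 13.9 and 14.3. MDK, the relative of PTN, differed by at most 1.08-fold. PTPRZ1, a receptor of pleiotrophin, stood at 14.2, 15.0 and 11 CPM against 36.8, 13.3 and 24.5. MYOF, PTN and PIEZO2 are genes of the rule, so their place beside these relatives is a description and nothing is drawn from it.

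Among matrix and signalling genes, COL4A1, a basement membrane collagen, stood at 92.3, 111 and 124 CPM in WT, HET and KO members against 41.5, 60.7 and 54.3. INHBA, the activin A subunit, stood at 78.6, 33.4 and 44.5 CPM against 22.2, 11.9 and 16.7. WNT5A stood at 88.5, 47.5 and 73.3 CPM against 40.4, 19.1 and 47.1, and SFRP5, a WNT inhibitor of foregut, at 17.9, 12.4 and 6.93 CPM against 104, 57.7 and 37.7. The smallest fold over the libraries was 2.66 for INHBA, higher in members, and 4.65 for SFRP5, lower in members. MITF, a transcription factor known from pigment cells, stood at 49.6, 48.6 and 61.1 CPM against 12.8, 15.2 and 20.4. Of 20 or 21 YAP and TEAD target genes with at least 5 CPM, which include MYOF, 1 was at least 2-fold higher in WT, 2 in HET and 4 in KO, against 2.65%, 2.34% and 1.92% of all genes. The count in WT is near that share, and MYOF was chosen by the rule. CYR61 and CTGF, the best-known of them, were 1.24 to 1.64 times as high in members.

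Markers of some other cell types were under 5 CPM. All 12 kidney and urothelium genes stayed under 5 CPM, and of 10 immune genes only LYZ and CD74 reached it, without PTPRC. Of 12 endothelial genes 1 reached 5 CPM in each library. Cell stress lists did not set the members apart: 14 of 14 immediate early genes lay within 2-fold in each library, and so did 20 of 20 genes of the IRE1-XBP1 branch of the unfolded protein response, with list medians from 0.02 to 0.06 on the log2 scale. Genes of surface ectoderm differed by library. Of 14, 5 reached 5 CPM in HET, and their summed level over the list was 154 CPM in HET members and 82.6 in HET others, against 5.73 to 26.0 CPM in the groups of WT and KO. Amnion and trophoblast genes summed to 416, 731 and 575 CPM in WT, HET and KO members. Of those with at least 5 CPM, 3 of 7, 5 of 11 and 2 of 5 were at least 2-fold higher in members than in the others of the same library. Over all genes with at least 5 CPM, 2.65%, 2.34% and 1.92% were that much higher. KRT7, which the rule used, is on this list and counts in each library. In WT 1 of the 7 genes was at least 2-fold lower in members, and in HET and KO 0 were. COL3A1, LUM and DCN, collagen and matrix genes of mesenchyme, stood at 58.8, 17.0 and 22.8 CPM in HET members and at or under 4.22 CPM in WT and KO members. The whole list of 16 mesenchyme genes, VIM (vimentin) among them, did not follow these 3. It summed to 2234, 1834 and 2164 CPM in WT, HET and KO members, against 1872, 1802 and 1994 in the others.

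Levels of genes outside the rule moved with the number of rule markers in a cell. S100A14 went from 243 CPM in WT cells with 0 markers through 771 with 2 and 2235 with 4 to 4566 with 6. In HET it went from 151 to 2365 CPM and in KO from 176 to 2263 CPM. RBP4 went from 33.1 to 878 CPM in WT, from 28.4 to 1370 in HET and from 39.6 to 758 in KO. MYL7 went from 2.46 to 150, from 5.97 to 94.6 and from 3.93 to 136 CPM. S100A14, RBP4 and MYL7 were higher at each further marker in every library.

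In the other direction SOX9 went from 73.2 CPM with 0 markers to 7.58 with 6 in WT, from 54.0 to 9.33 in HET and from 67.7 to 11.5 in KO. NTS went from 1758 to 36.0 CPM, from 1172 to 26.7 and from 548 to 15.0. KRT19 showed no such course, at 791 and 605 CPM in WT, 926 and 784 in HET and 765 and 845 in KO. Median UMI counts moved along with these steps, from 13191.5 to 20461.5 in WT, from 12365 to 24971 in HET and from 12875 to 23078.5 in KO. CPM divides by each group's UMIs, and the part of depth in which cells reach each step was not tested.

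**Figure D3:**
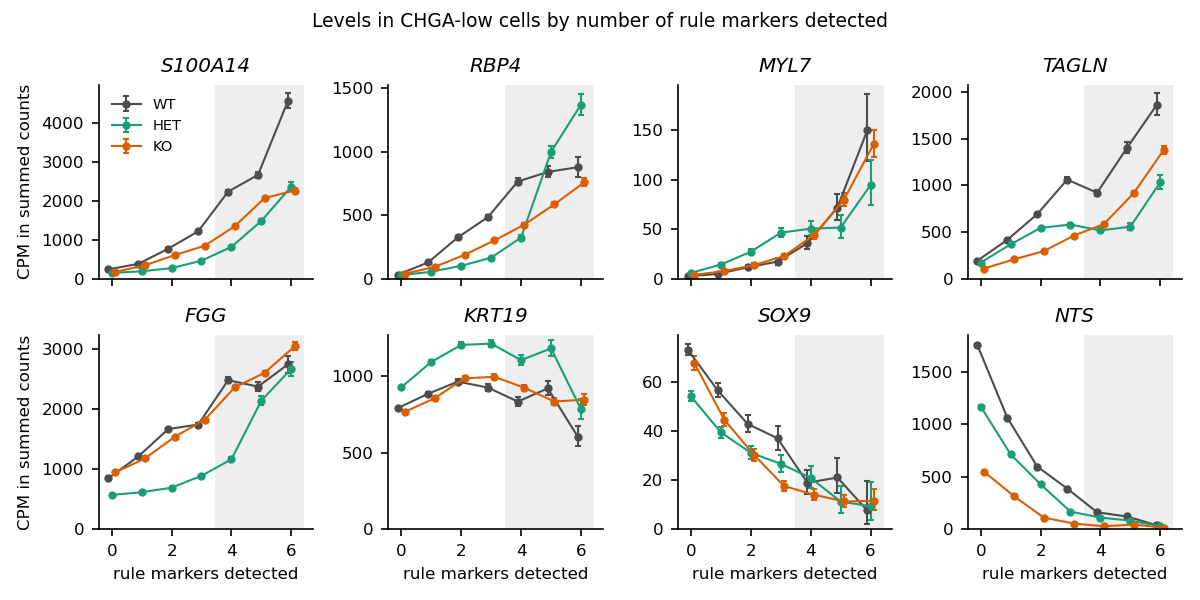
Level (CPM of summed counts, linear axes that start at 0) of 8 genes outside the rule in CHGA-low cells with 0 to 6 rule markers, 1 line per library, with exact Poisson intervals and members shaded. S100A14, RBP4 and MYL7 are higher with more markers in WT, HET and KO, SOX9 and NTS are lower with 6 than with 0, and KRT19 stays between 605 and 1211 CPM.

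The members did not form a cluster of their own. Clustering took the CHGA-low cells of all libraries jointly and left out the 6 rule markers, mitochondrial and ribosomal protein genes and PAX6; it gave 14 clusters. Cluster 3, led by MYOF, EGFL6, KRT7, MYL7 and PTN although 4 of these were not used to form it, held 139 of 254 WT members (54.7%), 104 of 277 HET members (37.5%) and 679 of 1041 KO members (65.2%). Members were in turn 37.9%, 32.1% and 52.0% of that cluster's cells. Cluster 5, led by RORA, KIT, C5orf66-AS1, DUOX2 and CFTR, held 30, 18 and 176 members. Cluster 12, led by SLC13A2, ABCB1, CUBN, SLC51B and the apolipoprotein gene APOA2, held 31, 10 and 49. APOA2 stood at 3369 CPM in all cells of cluster 12 and at 431 in the cells of other clusters, and the part of this cluster in the fetal-liver levels of the members was not tested. Cluster 9, led by the cell-division genes AURKB, RRM2, TOP2A and MKI67, held 12, 31 and 46.

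Cluster 11, led by CXCL14 with TFAP2B, VTCN1 and GABRP, genes known from surface ectoderm and amnion, held 57 HET members (20.6%), 9 KO members (0.865%) and 0 of 254 WT members, which allows a share of up to 1.44%. It was made of HET and KO cells, with 0 from WT, so it may be a feature of those libraries. Among the nearest neighbours of a member, the median share of members was 40% in WT, 25% in HET and 60% in KO, against 0% around other CHGA-low cells and 7.30% of all CHGA-low cells. No step aligned the libraries, and members were 3.85%, 3.67% and 14.1% of the CHGA-low cells of WT, HET and KO. The 3 medians therefore have no common base and are not ranked. Members thus lay near each other, but HET members were spread over more clusters.

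**Figure D4:**
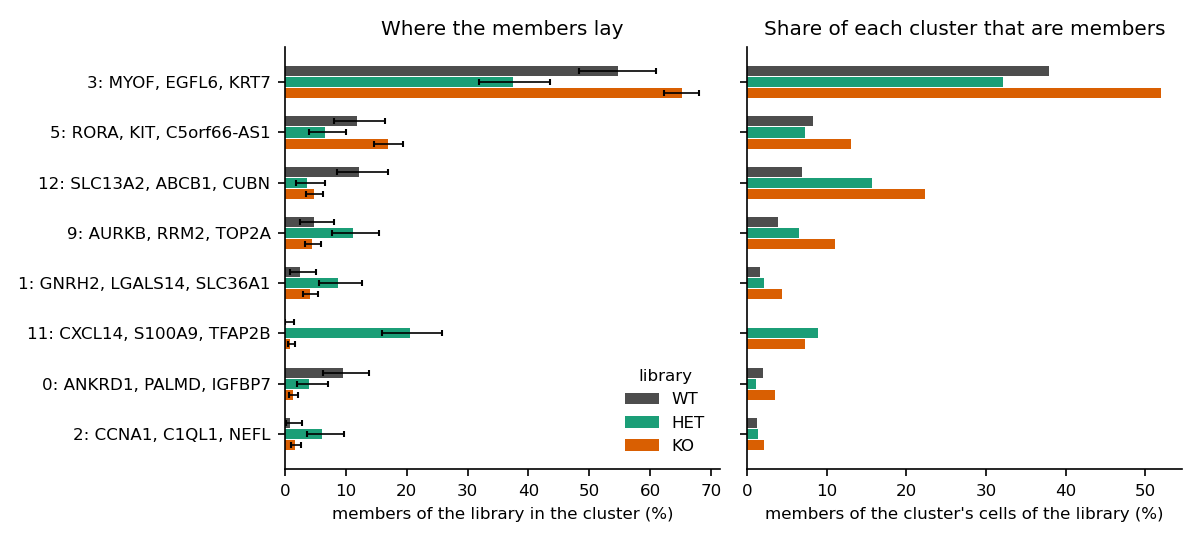
Members of each library by cluster (left, percent of the library's members, with exact binomial intervals) and the share of each cluster's cells that were members (right, percent), for the clusters with the most members, named by leading genes. Cluster 3 holds the largest share in each library and cluster 11 holds 20.6% of the HET members.

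Members of different clusters were alike in some genes and apart in others. FGG stood at 2589, 2506 and 2787 CPM in WT, HET and KO members of cluster 3 and at 2779, 2057 and 2143 in those of cluster 5. VIM stood at 2413, 2012 and 1990 CPM in cluster 3 and at 2339, 2261 and 2838 in cluster 5. In cluster 3, TAGLN stood at 1618 CPM in WT members, 1007 in HET and 1081 in KO, and in cluster 5 at 112, 127 and 107. NPPB stood at 1088, 660 and 355 CPM in cluster 3 and at 22.1, 135 and 39.3 in cluster 5. S100A14 stood at 3202, 2025 and 2050 CPM in cluster 3 and at 1304, 1160 and 847 in cluster 5. In cluster 9, TAGLN stood at 876, 290 and 529 CPM and S100A14 at 1003, 801 and 1195. TAGLN and NPPB were thus lower in members of cluster 5 than in those of clusters 3 and 9 of the same library.

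Cluster 5 members carried more CFTR, at 83.6, 104 and 72.4 CPM in WT, HET and KO against 54.6, 59.9 and 50.7 in cluster 3. The 57 HET members of cluster 11 had 172 CPM of KRT7, 184 of PTN and 68.4 of MYOF. They had 72.2 CPM of S100A14 and 38.4 of RBP4, far below the other members. Their CXCL14, a chemokine of skin and placenta, stood at 1343 CPM, COL3A1, a fibrillar collagen, at 277 and MKI67 at 167. They met the rule with another set of genes around it.

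A class of cells with ANKRD1, TAGLN and NPPB, genes induced by stretch, overlapped the members in part. All 3 RNAs were found in 33.5% of WT members, 34.7% of HET members and 41.2% of KO members, against 11.7%, 13.5% and 10.1% of the other CHGA-low cells, which were shallower. Of the cells with all 3, members made up 10.2%, 8.92% and 40.1%. ANKRD1 itself differed little, at 761, 400 and 427 CPM in members against 618, 439 and 285. NOS1, DKK1 and NTS together were found in 1 of 254, 2 of 277 and 2 of 1041 members, against 1.13%, 4.70% and 0.723% of the other cells.

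Within the members, the libraries were compared next, beginning with PAX6 as the edited gene. PAX6 RNA was scarce in members, with 15 UMIs in WT (2.85 CPM), 23 in HET (3.52 CPM) and 23 in KO (0.990 CPM). In the CHGA-high cells, where the gene is active, it stood at 286 CPM in WT (280 to 293), 217 in HET (208 to 226) and 275 in KO (267 to 283), without TMM scaling. The lesion can leave RNA in place, so the level of PAX6 RNA did not check the labels. Hormone genes differed in those cells: GCG, glucagon, stood at 26906, 15147 and 715 CPM.

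KO members differed from WT members in few genes, and those higher were of varied kinds. Of 3488 genes, 8 (0.229%) passed 2-fold upward in KO members and 38 (1.09%) downward. CA3, a carbonic anhydrase of muscle and fat, stood at 60.7 CPM in KO and 16 in WT, or 3.8-fold higher (3.05 to 4.80). FBN1, the matrix protein fibrillin-1, stood at 64.7 and 28.3 CPM, and HNRNPM, a splicing factor, at 243 and 110. MT-ND6, a mitochondrial gene, and DDX18, RBM3 and RRP15, genes of RNA handling, passed with folds from 2.06 to 2.22. In the other CHGA-low cells CA3, FBN1, HNRNPM and MT-ND6 were also past 2-fold, while DDX18, RBM3 and RRP15 were not.

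Among the genes lower in KO members, GCG had the largest ratio. It stood at 4.0 CPM in KO and 192 in WT members, or 48.1-fold lower (38.8 to 60.1), and INS, insulin, at 12.7 and 60.6, or 4.75-fold lower. Both genes showed the same in other CHGA-low cells, with GCG at 3.56 CPM in KO and 281 in WT. In each library GCG and INS in members differed by at most 1.60-fold from the other CHGA-low cells. Both were lower in KO than in WT in the CHGA-high cells too, from which free RNA can reach other droplets, and its part was not tested. LTB, lymphotoxin beta, stood at 7.41 and 55.5 CPM, NTS at 30.9 and 141, and IGF2 at 23.0 and 70.1. AKR1C3 and AKR1C2, steroid-reducing enzymes with near-identical sequences, stood at 18.8 and 46.0 CPM in KO and at 80.7 and 145 in WT, and reads may have been split between them. DUOXA2, which matures an oxidase that makes hydrogen peroxide, stood at 72.5 and 206 CPM. Of the 10 named lower genes, 8 were past 2-fold in other CHGA-low cells too, all but DUOXA2 and RARRES3.

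Shared calls made up a good part of this comparison. In other CHGA-low cells, 13 genes (0.374%) were higher and 65 (1.87%) lower in KO than in WT. Of the 8 higher genes of the members 4 were also on the others' list, which is 30.8% of the latter, and of the 38 lower genes 19 were, which is 29.2% of the latter. Whether any gene differed more in members than in others was not tested, as the design has 1 library per genotype.

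Named genes higher in HET than in WT members included cell-division genes and genes that lead cluster 11. Of 3491 genes, 46 (1.32%) passed 2-fold upward in HET and 46 (1.32%) downward. Without TMM scaling, 56 passed upward and 37 downward. CXCL14 stood at 278 CPM in HET and 0.380 in WT, where it had 2 UMIs, or 733 times as high (203 to 6056 by counting error). COL3A1 stood at 58.8 and 1.52 CPM, or 38.7-fold higher (19.5 to 90.3). TOP2A and MKI67, markers of dividing cells, stood at 115 and 63.9 CPM in HET and at 16 and 9.88 in WT. MEIS2, a homeodomain factor, stood at 104 and 25.6 CPM.

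All 16 genes of the cell-division list were at least 2-fold higher in HET than in WT members, where 4.83% of all genes with at least 5 CPM were that much higher and 2.11% that much lower. The list's median log2 difference was 1.97, beside 0.00 over all genes. The clusters of the members moved with this result. Without the members of clusters 9 and 11, 19 genes were higher and 32 lower in HET. In the members of cluster 3 alone, TOP2A had 11 UMIs in HET and 20 in WT, or 4.64 CPM (2.32 to 8.30) and 6.70 CPM (4.09 to 10.3). MKI67 stood there at 2.95 and 6.70 CPM, while CENPF stood at 11.4 and 6.70 and PCNA at 27.4 and 20.1. The intervals of HET and WT overlapped for each of these 4 genes, which is not a test of a difference. Cluster 3 was formed apart from cluster 9, which cell-division genes lead, so its low counts cannot decide whether division differed. CXCL14 stood at 9.70 CPM in HET and 0.335 in WT in that cluster.

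Among the genes lower in HET members, DUOXA2 stood at 44.3 CPM in HET and 206 in WT, EDN1, the vessel-constricting peptide endothelin-1, at 49.95 and 182, and PLCG2, a phospholipase, at 120 and 407. GCG stood at 56.4 and 192 CPM and MESP1 at 60.5 and 178.5. All 10 named lower genes were past 2-fold lower in the other CHGA-low cells too. Of the higher genes, 5 of 10 were, and MEIS2, NUSAP1, TOP2A, TPX2 and UBE2C were not. In other CHGA-low cells 15 genes (0.430%) were higher and 39 (1.12%) lower in HET. The lists shared 11 higher genes (23.9% of the members' list and 73.3% of the others') and 12 lower genes (26.1% and 30.8%).

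KO and HET members were compared as well, and this comparison shares libraries with the other 2. Of 3388 genes, 4 (0.118%) passed 2-fold upward in KO and 40 (1.18%) downward. RGS4, a regulator of G-protein signals, stood at 186 CPM in KO and 79.7 in HET, and PRICKLE2, a planar polarity protein, at 61.1 and 28.5. LINC02413 and ADAMTS16, a secreted protease, were 2.34- and 2.08-fold higher. Among the lower genes, CXCL14 stood at 11.2 CPM in KO and 278 in HET, COL3A1 at 4.22 and 58.8, and MKI67 at 12.1 and 63.9. GCG, at 4.0 and 56.4 CPM, NTS, at 30.9 and 91.0, and SPP1, at 275 and 726, were also past 2-fold lower in KO. In members outside clusters 9 and 11, 0 genes were higher and 17 lower in KO. In the other CHGA-low cells 8 genes (0.242%) were higher and 22 (0.667%) lower, with 0 higher and 9 lower genes in common with the members' lists.

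**Figure D5:**
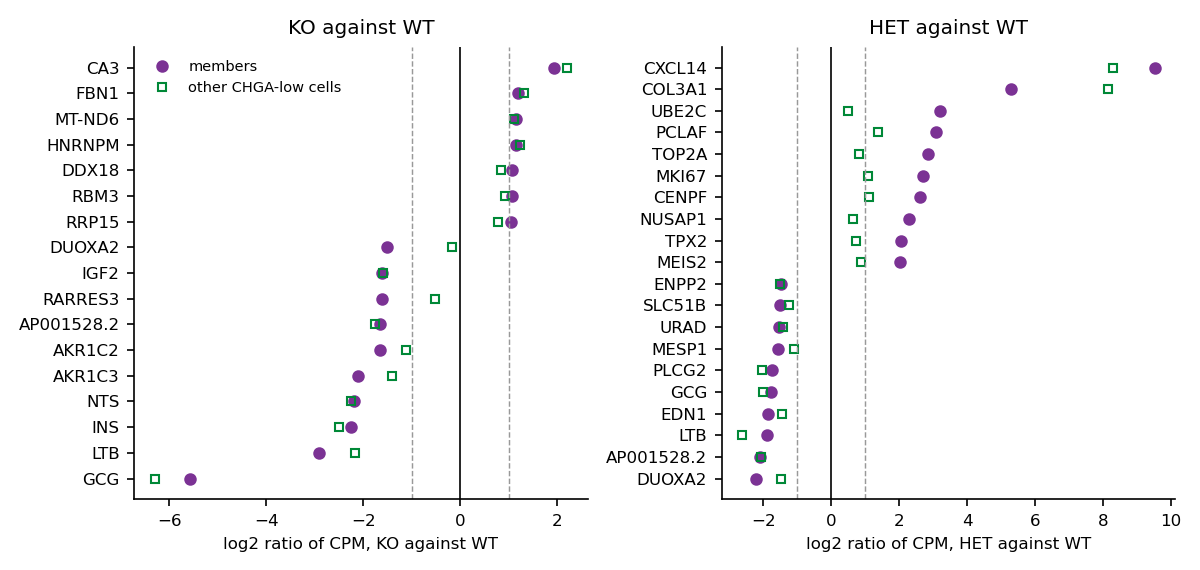
Log2 ratio of the CPM in KO to that in WT (left) and in HET to that in WT (right) for genes among the 10 largest ratios in each direction, in members (filled circles) and in the other CHGA-low cells (open squares), with dashed lines at 2-fold. GCG is lower in both kinds of cells, while TOP2A and UBE2C are past 2-fold higher in HET members and not in the other cells.

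The gene lists were compared between the libraries too. Of all genes that reached 5 CPM in KO or WT members, 1.36% passed 2-fold upward in KO and 1.92% downward. For HET against WT members these shares were 4.83% upward and 2.11% downward. The contractile list had a median log2 difference of -0.16 in KO against WT, with 8 of 9 genes within 2-fold, and of 0.01 in HET against WT, with 6 of 10 within 2-fold, 2 higher and 2 lower. For the fetal-liver list the medians were -0.36 and -0.46, and 10 and 12 of its 12 genes lay within 2-fold. The 57 HET members of cluster 11, which held 0 WT members, had 186 CPM of FGG and 125 of APOA2. In members of cluster 3, FGG stood at 2506 CPM in HET and 2589 in WT. There APOA2 stood at 1690 and 910 CPM, APOB at 1122 and 700, and RBP4 at 1130 and 842. The part of the cluster mix in the list medians was not tested. Of ANKRD1, TAGLN and NPPB, 1 was past 2-fold lower in KO and 2 in HET than in WT members. Of 13 duct genes, 11 lay within 2-fold between KO and WT, TFF1 being higher (28.4 against 8.17 CPM) and SPP1 lower (275 against 589 CPM). Of 20 IRE1-XBP1 genes, 19 lay within 2-fold between KO and WT and between HET and WT, with medians of -0.23 and -0.29 beside 0.04 and 0.00 over all genes. KDELR3, which retrieves escaped proteins for the endoplasmic reticulum, was the gene lower in both, at 21.2 CPM in KO and 18.7 in HET against 48.8 in WT. XBP1 stood at 210 CPM in WT, 161 in HET and 164 in KO, and ERN1, which encodes IRE1, at 10.1, 6.13 and 8.35.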

How the data were processed

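Per the labels' protocols, each genotype gave 1 droplet library (Chromium, 10x Genomics), sequenced on a NovaSeq. The authors deposited raw UMI counts per gene and barcode for 33538 genes, made with Cell Ranger 6.1.2 per the file headers. GRCh38 and Seurat are named in the submitters' processing notes. Whether the kit read the 3′ or 5′ end is not given in the sources used here.

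Depth was 136834433 to 145948590 UMIs per library. Members were found by the rule given above. Raw counts of members and of other CHGA-low cells were summed per library, scaled by TMM (edgeR 4.0.16, R 4.3.3) over the 6 sums and given as CPM. A gene counted as 2-fold apart needed at least 50 CPM in 1 of the 2 sums, and list genes at least 5 CPM. A count of 0 was set to a floor of 3 counts for folds. edgeR served only for scaling: with 1 library per genotype no model was fitted and no test was run. Doublet scores came from Scrublet in scanpy 1.11.5. Clusters used 2000 variable genes, 30 principal components, 20 neighbours and Leiden resolution 1 (leidenalg 0.10.2). Coordinates are from GENCODE 29 and upstream sequences from RefSeq.

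The 25 genes with the largest lowest fold over the libraries, the 12 furthest below, and the 10 largest library ratios in each direction were named, with genes of the lists as examples. Leading genes of clusters and genes with motif matches were named after their values were seen. The members and all gene lists were chosen with earlier results of these data known. The fold comparison alone was run on simulated Poisson counts with known scaling. At 3-fold, 100% of changed genes were called in KO members against others, in KO against WT and in HET against WT. At 1.5-fold or with no change, 0% were called. This outcome follows from the 2-fold limit. The choice of cells, TMM scaling and variation between cells or libraries were not simulated. Other marker limits, cell filters, doublet removal, thinning, plain CPM and depth-matched cells were tried as alternatives. Some genes that the rule names are not reported here.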

Additional observations from a re-analysis of the deposited data

Results flagged for a closer look

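Barcodes above 40000 UMIs were left out by the rule, and among these the CHGA-low ones often held at least 4 of the 6 markers. The share was 63.9% in KO (53 of 83, interval 52.6 to 74.1), 32.2% in WT (37 of 115, 23.8 to 41.5) and 33.6% in HET (48 of 143, 25.9 to 41.9). The KO share lay above that of WT as it did among the cells the rule kept. Very deep barcodes can hold more than 1 cell, and the part of such doublets was not tested.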

How the results depend on the processing

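The share of members moved with the limits of the rule, and KO stayed above WT and HET under each setting tried. With at least 3 markers the shares were 8.42% in WT, 10.1% in HET and 25.5% in KO, and with at least 5 they were 1.47%, 1.35% and 6.21%. With CHGA under 1 per 10000 UMIs they were 4.51% in WT and 16.4% in KO, and after thinning to 5000 UMIs 0.549%, 0.504% and 2.69%. Genes 2-fold higher and lower in KO members than in others numbered 116 and 85 after thinning, 40 and 23 against depth-matched cells and 578 and 1741 with no CPM minimum, with 27 lower genes at 3 markers. With no CPM minimum, 996 genes were higher and 561 lower in KO than in WT members, and 1105 and 489 in HET than in WT members; most of these rest on low counts, since the setting adds only genes under 50 CPM. With at least 5 markers, 15 genes were higher in KO than in WT, and 118 were higher in HET members than in HET others, against 53 in the main setting. With at least 3 markers, 49 genes were lower in members than in others in WT and 27 in HET, against 74 and 48. In that setting 10 genes were higher in KO than in HET members, against 4. Against depth-matched cells, 27 genes were lower in HET members. Restriction to clusters was added after seeing the data. In members of cluster 3 alone, 16 genes were higher in KO than in WT, and 24 were higher and 27 lower in HET than in WT; outside clusters 9 and 11, 19 were higher in HET.

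Many log2 ratios of named genes left the counting interval of the main setting. After thinning, 148 did so with the same sign, 4 changed sign and 30 stayed inside. Against depth-matched cells 97 moved and 38 stayed, and with at least 3 markers 105 moved and 82 stayed. Some log2 ratios changed sign. After thinning these were PAX6 in WT members against others (1.08), URAD (0.29) and SLC51B (0.20) in HET against WT, and CENPF in KO against HET (0.28). In cluster 3 alone they were UBE2C (-1.08), TOP2A (-0.62), MKI67 (-1.27) and TPX2 (-0.57) in HET against WT and UBE2C in KO against HET (0.74), and outside clusters 9 and 11 TOP2A (-0.41) and MKI67 (-1.02) in HET against WT. These settings changed which cells were used as well as how many, and the cause was not tested. Library gene counts after thinning are not given, as WT and HET kept under 50 members. No paired analysis was possible because each genotype had 1 library. PAX6 rested on 15 UMIs in WT members, so its level there was known only within 1.53 to 4.52 CPM without TMM scaling.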
